A study of Mus musculus with 2 samples.

Results

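The P2X receptor family was examined at the level of CG methylation. Its 7 genes, P2rx1 to P2rx7, were taken by name out of 21938 protein-coding genes in GENCODE M21, whose build is GRCm38. The rule names the family and uses no measured value, although the family was picked with results of these data already known. Each gene was read in 3 ways: 2 kb on each side of the transcription start site (TSS), over the whole gene body, and in 200 bp bins of a window that reached 25 kb beyond both ends of the gene. The windows of P2rx7 and P2rx4 overlap and were joined, and this pair was compared with the other 5 genes.

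P2X receptors are trimeric cation channels in the plasma membrane that open when extracellular ATP binds, and so let calcium and sodium into the cell. Osteoblasts release ATP when they are loaded mechanically and carry several P2X and P2Y receptors. P2X7 opens only at high ATP, drives inflammasome activation in macrophages, and is known in bone from mice that lack it. P2X4 is the closest relative of P2X7 in sequence and lies beside it in the genome. P2X2 and P2X3 are the receptors of sensory neurons, P2X1 that of smooth muscle and platelets, P2X5 is known in muscle and osteoclasts, and P2X6 forms channels mainly together with other family members.

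DNA came from primary osteoblasts of 3-day-old C57BL/6 mice, cultured before harvest, with 1 library from WT mice and 1 from TCKO mice, which carried Prx1-Cre with Tet1 fl/fl, Tet2 fl/fl and Tet3 fl/fl. TET enzymes oxidise 5mC and thereby start its removal, so the comparison asks where CG methylation differed in cells made to lose them. Prx1-Cre is active in early limb and part of the skull mesenchyme, so cells of other origin in a culture would keep their Tet genes, and the labels do not say whether the WT mice carried floxed alleles without Cre. Whole genome bisulfite sequencing reads 5mC and 5hmC alike as methylated, and a call here is 1 read over 1 CG cytosine. The level of a region is its methylated calls over all its calls. Depth was 5.97 calls per CG cytosine of the reference in WT and 5.11 in TCKO, and 70.2% of WT calls and 76.3% of TCKO calls were methylated genome-wide. With 1 library per genotype there is no replicate, so every test sets these libraries, not the genotypes, against each other, and every interval (95% Wilson for a level, binomial for a difference) covers counting error only. Calls on neighbouring cytosines can come from 1 read, so intervals, limits and tests that count calls as independent can understate this error. A bulk level averages all alleles in the culture, so a shift in every cell and a change in the mix of cells cannot be told apart.

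Around the TSS, P2rx7 was the most methylated member, and P2rx3, P2rx5 and P2rx7 had a higher level in TCKO past the test. Of the 7 members, 3 passed as higher and 0 as lower (2-sided Fisher exact test, adjusted over 21883 genes), where 37.9% of all tested genes passed as higher and 2.88% as lower. The members' median difference was 8.45 percentage points and that of all genes 4.71 points, with quartiles of 0.243 and 9.83. Over gene bodies all 7 members had a higher value in TCKO and 4 passed, where 64.4% of 21625 tested genes passed as higher and 2.79% as lower. The body median was 7.57 points for the members and 5.66 points for all genes. The member counts are thus near the shares of the whole genome.

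**Figure D1:**
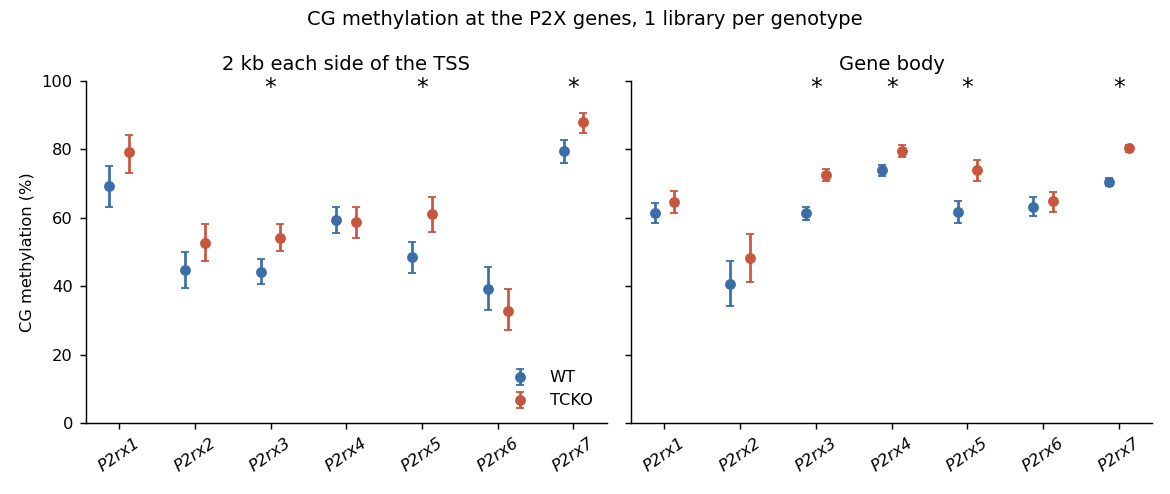
CG methylation (%) of the 7 P2X genes within 2 kb of the TSS (left) and over the gene body (right). Points are the pooled level of 1 WT (blue) and 1 TCKO (red) library, bars are 95% Wilson intervals, and a star marks an adjusted p below 0.05 (Fisher exact test). P2rx7 has the highest TSS level in both libraries (79.6% and 88.0%), and all 7 body levels are higher in TCKO.

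P2rx7 (ENSMUSG00000029468.17, chr5:122643911-122691432, plus strand, GRCm38) encodes the ATP-gated channel of macrophages and osteoblasts named above. Its TSS region was methylated at 79.6% in WT (563 calls, interval 76.0 to 82.7) and at 88.0% in TCKO (451 calls, 84.7 to 90.7). The WT level lies above that of 97.0% of tested genes, while 30.6% of genes had a larger difference. The increase was 8.45 points (interval 3.97 to 12.9, Fisher exact test, adjusted p = 0.00159). The difference was larger downstream of the TSS than upstream, with intervals that do not overlap. The 2 kb downstream of the TSS went from 65.0% (200 calls) to 83.8% (136 calls), 18.8 points apart with an interval of 9.77 to 27.9. The 2 kb upstream stood at 87.6% (363 calls) and 89.8% (315 calls), 2.24 points apart with an interval that includes 0 (-2.52 to 6.99). Within 500 bp of the TSS the level was 60.3% of 126 calls in WT and 81.3% of 91 calls in TCKO. In 250 bp steps, WT dipped to 30% of 10 calls in the step just before the TSS, to 40.9% of 22 calls between 500 and 750 bp and to 52.2% of 23 calls between 1500 and 1750 bp, and TCKO stood at 68.0%, 78.6% and 88.9% in the same steps. These few calls per step set how coarsely the dips are known.

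The promoter sequences of P2rx7 and P2rx4 are shown because the levels of the neighbouring receptors stand apart here. Both are RefSeq promoters on GRCm38, the plus strand 5′ to 3′, at chr5:122643677-122643926 for P2rx7 and chr5:122707294-122707543 for P2rx4, each 250 bases up to the RefSeq start. Capitals mark CG dinucleotides.
P2rx7 promoter: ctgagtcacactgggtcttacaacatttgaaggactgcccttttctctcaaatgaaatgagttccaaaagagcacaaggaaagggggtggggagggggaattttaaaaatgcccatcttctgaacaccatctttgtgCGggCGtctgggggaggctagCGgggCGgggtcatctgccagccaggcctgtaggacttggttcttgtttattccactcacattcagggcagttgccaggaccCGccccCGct
P2rx4 promoter: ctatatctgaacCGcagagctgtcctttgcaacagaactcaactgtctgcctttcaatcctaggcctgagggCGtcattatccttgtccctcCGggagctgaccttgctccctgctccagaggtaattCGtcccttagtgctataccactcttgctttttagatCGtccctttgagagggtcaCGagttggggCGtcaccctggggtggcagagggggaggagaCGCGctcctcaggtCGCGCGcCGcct
The P2rx7 promoter holds 6 CG sites, 4 of them close together. Its calls were methylated at 53.3% in WT (15 calls, interval 30.1 to 75.2) and at 77.4% in TCKO (31 calls, 60.2 to 88.6), and these intervals overlap. The P2rx4 promoter holds 13 CG sites, and none of its 20 WT calls or 23 TCKO calls was methylated, which allows a level of up to 15% and 13% (3 calls of the total, the limit used wherever no call was methylated). This limit counts each call as independent. Sites 6 to 13 had 1 WT call and 2 TCKO calls each, so a few reads can hold many of these calls and the true limit can be higher.

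P2rx4 (ENSMUSG00000029470.15, chr5:122707544-122729738, plus strand) encodes a channel with high calcium permeability found in microglia, endothelium and lysosomes. It starts 16111 bp beyond the 3′ end of P2rx7 and runs in the same direction. Within 500 bp of its TSS, 2 of 106 WT calls and 0 of 112 TCKO calls were methylated, the latter allowing up to 2.68%. Over the full 4 kb the levels were 59.5% in WT (657 calls) and 58.8% in TCKO (449 calls), a difference of -0.716 points with an interval of -6.62 to 5.19 (Fisher exact test, adjusted p = 0.914). An unmethylated core with methylated flanks was thus present in both libraries. The core held 106 of the 657 WT calls and 112 of the 449 TCKO calls, so it weighs more in the pooled TCKO level. The gene body rose from 73.9% (2608 calls) to 79.7% (2092 calls), by 5.76 points with an interval of 3.35 to 8.17 (Fisher exact test, adjusted p = 7.97e-06). The P2rx7 body rose from 70.6% (6430 calls) to 80.3% (5391 calls), by 9.74 points with an interval of 8.20 to 11.3 (Fisher exact test, adjusted p = 1.28e-33). A larger body difference was found in 16.8% of genes for P2rx7 and in 49.1% for P2rx4.

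Among the neuronal receptors, P2rx3 passed the test at both regions and P2rx2 at neither. P2rx3 (ENSMUSG00000027071.14, chr2:84998583-85037462, minus strand), the channel of pain-sensing neurons, rose at the TSS from 44.3% (691 calls) to 54.2% (605 calls), by 9.93 points with an interval of 4.5 to 15.4 (Fisher exact test, adjusted p = 0.00165). Its body rose from 61.4% (2672 calls) to 72.5% (2365 calls), by 11.1 points (Fisher exact test, adjusted p = 3.27e-16). The annotated 5′ end of P2rx3 is shared with Ssrp1, a histone chaperone gene on the other strand whose start lies 228 bp away, so the TSS window describes both genes. Within 500 bp of that end 1 of 107 WT calls and 1 of 143 TCKO calls were methylated, and the increase lay farther out, with 36.8% in WT (57 calls) and 69.8% in TCKO (53 calls) between 1000 and 750 bp upstream. The next annotated P2rx3 transcript start lies 1975 bp downstream, and within 500 bp of it the level was 64.4% in WT and 71.4% in TCKO. P2rx2 (ENSMUSG00000029503.16, chr5:110339812-110343212, minus strand), which pairs with P2X3 in sensory neurons, stood at 44.7% (338 calls) and 52.8% (326 calls) at the TSS. The difference of 8.09 points had an interval of 0.506 to 15.7 (Fisher exact test, adjusted p = 0.0933). Its body stood at 40.6% (219 calls) and 48.2% (195 calls), and the difference of 7.57 points had an interval of -2.00 to 17.1 (Fisher exact test, adjusted p = 0.182). Within 500 bp of the most downstream P2rx2 transcript start the level was 10.2% in WT and 10.4% in TCKO, against 25.4% and 41.2% around the first annotated start.

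In pooled calls, P2rx5 was the member with the largest TSS difference and P2rx6 the one with the lowest. This order depends on the averaging. As means of site levels, over cytosines with at least 4 calls in both libraries, P2rx5 differed by 8.35 points. By that measure P2rx2 (22.6) and P2rx3 (16.9) differed more, and P2rx6 (3.57) was no longer the lowest, with P2rx4 at 1.97. P2rx5 (ENSMUSG00000005950.14, chr11:73160421-73172685, plus strand), the channel known in muscle and osteoclasts, rose at the TSS from 48.4% (483 calls) to 61.1% (339 calls), by 12.6 points with an interval of 5.77 to 19.5 (Fisher exact test, adjusted p = 0.0017). As at P2rx7, the pooled difference was larger downstream of the TSS, from 41.5% to 70.1% (28.6 points, interval 18.9 to 38.3). The upstream 2 kb differed by -0.927 points (interval -10.3 to 8.48). Downstream calls fell in different places: the first 250 bp, with 0 methylated calls, held 59 in WT and 9 in TCKO. The steps from 1500 and 1750 bp stood at 86.2% and 81.1% in WT and 87.5% and 85.1% in TCKO. That from 1250 bp stood at 28.6% (14 calls) and 64.7% (17 calls). The part of call placement in the 28.6 points was not tested. Within 500 bp of the TSS both libraries were low, at 8.44% and 10.1%. The P2rx5 body rose from 61.8% (903 calls) to 73.9% (733 calls), by 12.1 points (Fisher exact test, adjusted p = 4.99e-07). P2rx6 (ENSMUSG00000022758.14, chr16:17561885-17577800, plus strand), the subunit of mixed channels, had 39.2% at the TSS in WT (227 calls) and 32.9% in TCKO (240 calls). The difference of -6.29 points had an interval of -15.0 to 2.41 (Fisher exact test, adjusted p = 0.289), and its body stood at 63.3% and 64.8%. P2rx1 (ENSMUSG00000020787.14, chr11:72999103-73015200, plus strand), the platelet and smooth muscle channel, had 69.4% at the TSS in WT (229 calls) and 79.2% in TCKO (197 calls). That difference of 9.76 points missed the threshold (Fisher exact test, adjusted p = 0.0625), with an interval of 1.53 to 18.0. The P2rx1 body stood at 61.5% and 64.8%. Within 500 bp of its TSS, P2rx1 had no low core, with 67.1% of 76 WT calls and 90.9% of 33 TCKO calls methylated.

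**Figure D2:**
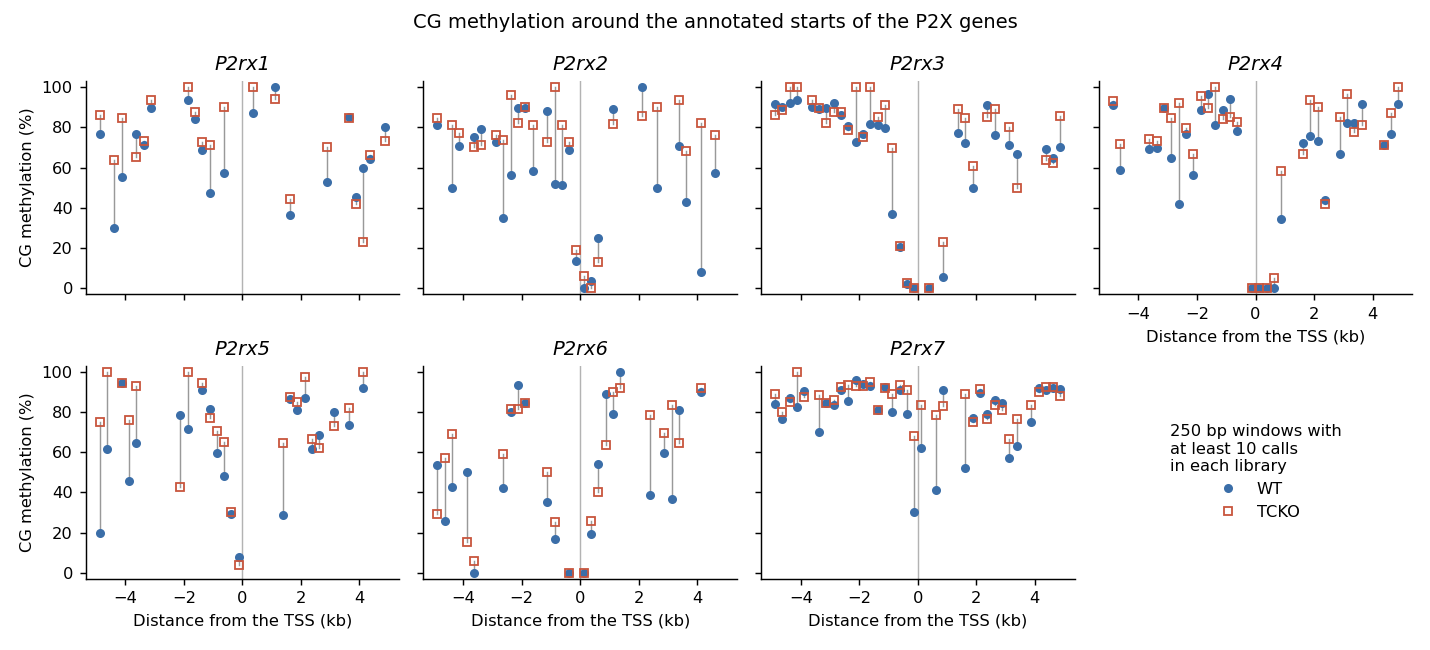
CG methylation (%) in 250 bp windows from 5 kb upstream to 5 kb downstream of the annotated start of each P2X gene, for windows with at least 10 calls in both libraries. Filled blue circles are WT, open red squares TCKO, and a grey line joins the levels of 1 window. P2rx3, P2rx4, P2rx5 and P2rx6 fall below 10% beside the start in both libraries, as P2rx2 does a little inside it, whereas P2rx7 and P2rx1 do not.

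The members thus fall into starts with an unmethylated core and starts without. The level within 500 bp of the TSS was at most 10.9% in either library for P2rx3, P2rx4, P2rx5 and P2rx6, and at least 60.3% for P2rx1 and P2rx7, with P2rx2 in between. The observed to expected CG ratio of the same 1001 bp, a measure of CG richness, was 0.210 for P2rx1, 0.386 for P2rx7 and 0.345 for P2rx6, and between 0.598 and 0.780 for P2rx2, P2rx3, P2rx4 and P2rx5. The median of all genes was 0.552. In order of the WT level over the 4 kb, P2rx7 was followed by P2rx1, P2rx4, P2rx5, P2rx2, P2rx3 and P2rx6. The intervals of P2rx7 and P2rx1 did not overlap, nor did those of P2rx4 and P2rx5, while the other neighbours in the order overlapped.

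The pair of P2rx7 and P2rx4 did not differ from the other 5 genes in its TSS or body difference past the test. The pooled TSS difference was 4.67 points for the pair and 7.47 for the others, -2.80 points apart with an interval of -7.85 to 2.25 (2-sided normal test with the binomial error of the calls, p = 0.278). The body differences were 8.60 and 7.90 points, 0.701 apart with an interval of -1.49 to 2.89 (binomial error, p = 0.530). Both outcomes depend on the setting: the TSS difference passed at -9.99 points with cytosines of at least 4 calls, and the body difference passed on the log odds scale. Within the pair, the P2rx7 TSS difference exceeded that of P2rx4 by 9.17 points (interval 1.76 to 16.6, binomial error, p = 0.0458 adjusted over the 6 comparisons of P2rx7 with each other member). It exceeded that of P2rx6 by 14.7 points (binomial error, adjusted p = 0.0189), and the other 4 comparisons had adjusted p of 0.637 to 0.935. These 6 comparisons were added after the values were seen. They pool calls, and their errors do not cover the uneven weight of the P2rx4 core. That core held 106 of 657 WT calls and 112 of 449 TCKO calls, and its part in the gap was not tested. The gap between P2rx7 and P2rx4 was 14.8 points with 1 kb on each side (interval 4.10 to 25.6), but 0.0857 points over the 2 kb upstream, 2.21 points with cytosines of at least 4 calls and 2.52 points on the minus strand, each with an interval that includes 0. The 3 protein-coding genes nearest to P2rx7 in the 4 levels (TSS and body, WT and TCKO), out of 20489 with at least 100 calls in each, were Txk, CN725425 and Aqp4, at Euclidean distances of 1.82, 2.05 and 2.12 points.

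Local changes were read in those 200 bp bins of the windows that could be tested. In the 6 windows, 428 bins of 200 bp could be tested (a bin needed 4 or more CG cytosines, and an average depth of 4 or more calls per cytosine in both libraries), of 2534629 in the genome. Of these, 19 gained 40 points or more in TCKO with an adjusted p below 0.05 (Fisher exact test over all testable bins), which is 4.44% (interval 2.86 to 6.83). The genome-wide share was 2.87% with the test and 3.06% without it, and the same 19 bins made up the gains without the test. No bin of the windows lost 40 points, against 0.0355% of bins genome-wide. The joined P2rx7 and P2rx4 window held 11 of its 163 testable bins (6.75%, interval 3.81 to 11.7), and the windows of the other genes 8 of 265 (3.02%, interval 1.54 to 5.84). The shares were 3.73 points apart (2-sided Fisher exact test, p = 0.0898), and adjacent bins share reads, so this p covers counting only. With bins shifted by 100 bp the shares were 1.82 points apart, and with at least 1 call per cytosine 0.758 points. The 4 CG cytosines of a bin count both strands and so can be 2 CG sites, and with at least 8 cytosines 7 of 135 bins gained, 6 of them in the pair's window. By window, P2rx3 and P2rx6 had 3 gaining bins each, P2rx2 and P2rx5 had 1 each, and P2rx1 had 0 of 28. Genes elsewhere in the windows held 4 of the 19, introns of the members 8, and 7 lay outside genes. The testable bins of each place were not counted, so these counts give no share. None lay within 2 kb of the gene-model start of a member, the nearest being 2416 bp into P2rx6. Testable bins near these starts were not counted either, so this gives no share. A further P2rx7 transcript starts 6513 bp downstream of the first, and the gaining bin 5.59 kb into P2rx7 lies within 2 kb of it. The bins closest to the 40 point limit were one at chr5:122687401-122687600, which went from 22.9% to 63.0% (40.05 points), and one in the P2rx3 window at chr2:84979401-84979600, which went from 41.7% to 80.0% (38.3 points) and was left out.

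**Figure D3:**
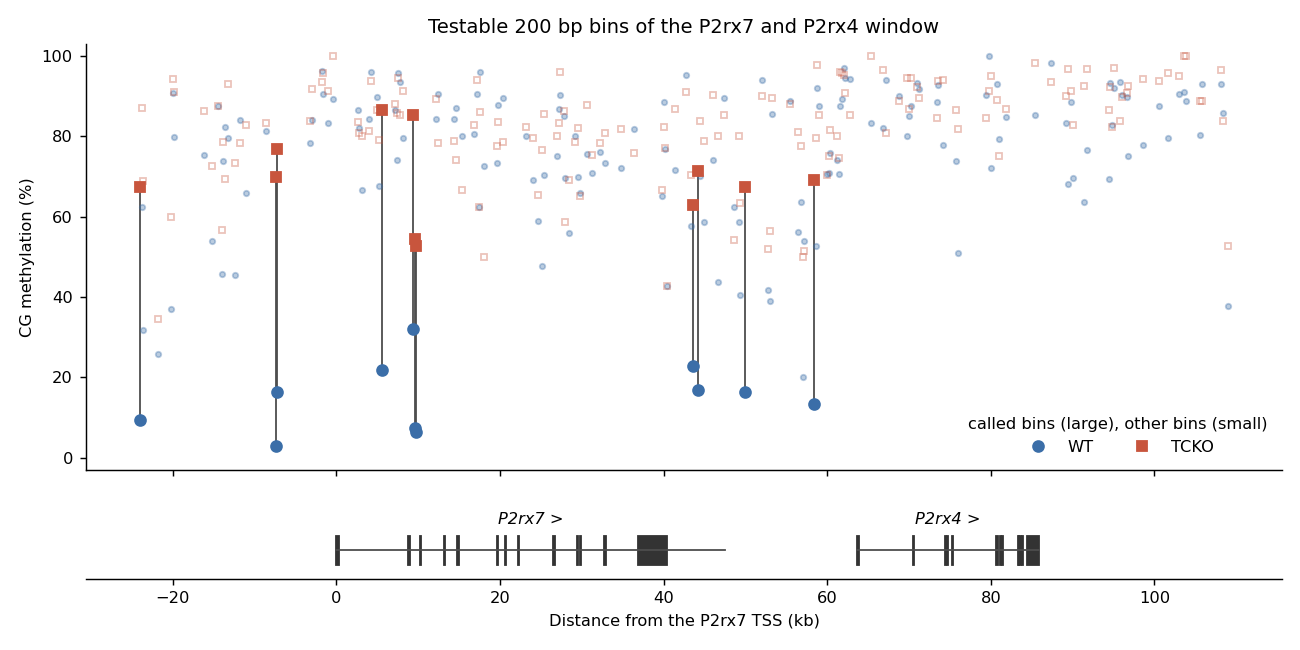
CG methylation (%) of the 163 testable 200 bp bins in the joined window, against distance from the P2rx7 TSS in kb. Circles are WT and squares TCKO, large symbols joined by a line are the 11 gaining bins, and the track below draws exons (boxes) and gene extents of P2rx7 and P2rx4, both read to the right. Of the 11, 6 lie in P2rx7, 5 outside genes and 0 in P2rx4, without a count of the testable bins in each.

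P2rx7 introns held 6 of the 11 gaining bins of the pair. The gene spans 47522 bp of the 135.828 kb window, and its share of the testable bins was not counted. In intron 2, 3 adjacent bins formed a stretch at chr5:122653201-122653800 that was methylated at 12.5% in WT (337 calls, interval 9.35 to 16.4) and at 63.5% in TCKO (315 calls, 58.0 to 68.6), 51.0 points apart. Its middle bin had the most calls of the 19 bins, and went from 7.39% (203 calls) to 54.5% (165 calls). Over its 12 CG cytosines this is far deeper than the 5.97 (WT) and 5.11 (TCKO) calls per cytosine genome-wide, and the reason was not tested. Without the deepest cytosines the P2rx7 body difference was 8.53 points rather than 9.74. A bin in intron 1 at chr5:122649401-122649600, 5.59 kb into the gene, went from 21.8% (78 calls) to 86.4% (59 calls), 64.6 points apart. It lies upstream of a further annotated P2rx7 transcript start, 6513 bp downstream of the first. Within 500 bp of that start the level was 66.1% in WT (56 calls) and 79.7% in TCKO (69 calls). The remaining pair of bins, at chr5:122687401-122687600 and chr5:122688001-122688200, lies in the last intron of the P2rx7 transcript that reaches farthest and beyond the end of the principal transcript. They went from 22.9% to 63.0% and from 17.0% to 71.4%.

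The reference sequences of the intron bins are shown because they combine large differences with many calls inside P2rx7, with capitals for CG dinucleotides (GRCm38, plus strand, 5′ to 3′). The first is chr5:122653201-122653400 and the second chr5:122653401-122653600, both in intron 2, and the third is chr5:122649401-122649600 in intron 1.
Intron 2, first bin: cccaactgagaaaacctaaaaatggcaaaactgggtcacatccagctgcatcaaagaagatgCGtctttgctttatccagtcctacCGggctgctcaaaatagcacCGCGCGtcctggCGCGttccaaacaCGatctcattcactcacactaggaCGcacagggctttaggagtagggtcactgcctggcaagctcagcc
Intron 2, middle bin: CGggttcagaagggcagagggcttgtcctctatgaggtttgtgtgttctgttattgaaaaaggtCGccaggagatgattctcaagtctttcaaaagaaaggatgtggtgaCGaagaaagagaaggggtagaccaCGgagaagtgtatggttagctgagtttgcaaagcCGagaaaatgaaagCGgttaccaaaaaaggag
Intron 1 bin: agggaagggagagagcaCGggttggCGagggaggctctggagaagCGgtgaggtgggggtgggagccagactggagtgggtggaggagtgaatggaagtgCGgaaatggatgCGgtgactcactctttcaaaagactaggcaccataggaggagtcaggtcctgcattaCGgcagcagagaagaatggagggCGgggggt
The 3 bins hold 9, 6 and 7 CG sites, and every site had a higher level in TCKO than in WT. The sites of the middle bin, with 11 to 42 calls each, were methylated at 0 to 18.4% in WT and at 40.5% to 80.6% in TCKO. The fourth and the fifth site had 0 methylated of 40 and 42 WT calls, which allows 7.50% and 7.14%, and stood at 45.5% and 40.5% in TCKO. Its last site stood out in TCKO with 80.6% of 36 calls, next to 4.88% of 41 calls in WT. In the first bin, where 5 sites are packed into 2 short CG runs, WT ran from 12.5% to 66.7% over 6 to 10 calls a site and TCKO from 60% to 100%. The intron 1 bin ran from 0 to 42.9% in WT and from 73.3% to 100% in TCKO. No site of these bins went the other way, although single sites with few calls are coarse. The bins were taken from those already found to gain, so agreement of their sites is favoured by that choice and adds no evidence.

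Outside genes, the pair's window held 5 more gaining bins. Upstream of P2rx7, adjacent bins at chr5:122636401-122636800, 7.41 and 7.21 kb from the TSS, were methylated at 8.11% in WT (111 calls, interval 4.32 to 14.7) and at 72.8% in TCKO (92 calls, 63.0 to 80.9). The first of them had the largest difference in the window, from 2.94% of 68 calls to 69.8% of 53 calls (66.9 points, interval 53.9 to 79.9). A bin 24.0 kb upstream of P2rx7 at chr5:122619801-122620000 went from 9.38% (32 calls) to 67.5% (40 calls). Between the genes, a bin at chr5:122693801-122694000 went from 16.4% (55 calls) to 67.4% (43 calls). A bin at chr5:122702201-122702400, 5244 bp before the P2rx4 TSS, went from 13.3% (30 calls) to 69.2% (26 calls). P2rx4 itself, 22195 bp long, held 0 gaining bins, and its testable bins were not counted.

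Testable bins below 20% in WT, a limit chosen after the values were seen, were also counted. The pair's window had 8, and all 8 are among the 11 gaining bins. The windows of the other members had 15, of which 4 are gaining bins and 5 stayed below 20% in TCKO. Genome-wide, 26142 of 71815 such bins (36.4%) are gaining bins and 26141 stayed below 20%. The counts are given without a test, since a gain of 40 points or more favours bins that are low in WT. The unmethylated core of P2rx4 is not among them, because its bins had too few calls.

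**Figure D4:**
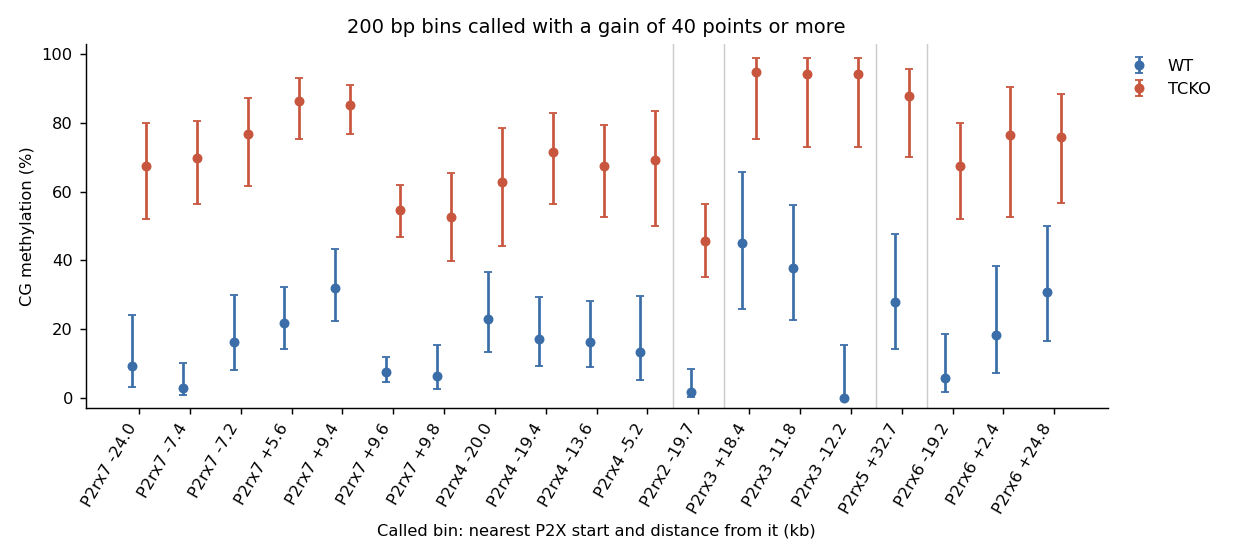
CG methylation (%) of the 19 gaining bins, named by the nearest P2X start and the distance from it in kb (negative is upstream), with WT in blue and TCKO in red. Bars are 95% Wilson intervals and grey lines part the windows. WT levels run from 0% to 45.0% and TCKO levels from 45.7% to 94.7%. No pair of intervals overlaps, which the choice of bins by gain and adjusted p favours.

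In the windows of the other members the gaining bins were scattered. The largest difference of all 19 was in the P2rx3 window, in an intron of Tnks1bp1, a gene for a tankyrase-binding protein, at chr2:85049601-85049800. It holds 2 CG sites, shown here with capitals on the plus strand of GRCm38.
Tnks1bp1 intron bin: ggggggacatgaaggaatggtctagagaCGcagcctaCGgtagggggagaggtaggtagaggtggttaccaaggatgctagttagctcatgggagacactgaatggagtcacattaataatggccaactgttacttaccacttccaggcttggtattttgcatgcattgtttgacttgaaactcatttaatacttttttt
None of its 21 WT calls was methylated, which allows up to 14.3%, and 16 of its 17 TCKO calls were (94.1%, interval 73.0 to 99). Both sites differed, with 0 of 9 and 0 of 12 WT calls next to 88.9% and 100% of the TCKO calls. A second Tnks1bp1 bin at chr2:85049201-85049400 went from 37.9% (29 calls) to 94.1% (17 calls), and a P2rx3 intron bin at chr2:85019001-85019200 from 45.0% (20 calls) to 94.7% (19 calls). In the P2rx6 window a bin 19.2 kb upstream at chr16:17542601-17542800 went from 5.71% (35 calls) to 67.5% (40 calls). A P2rx6 intron bin at chr16:17564201-17564400 went from 18.2% (22 calls) to 76.5% (17 calls), and a bin at chr16:17586601-17586800 from 30.8% (26 calls) to 76.0% (25 calls). The P2rx5 window's bin lay in a coding exon of Ctns, the lysosomal cystine transporter, at chr11:73193001-73193200, and went from 28.0% (25 calls) to 88.0% (25 calls). The P2rx2 window's bin lay in a noncoding part of a Fbrsl1 exon at chr5:110362801-110363000, and went from 1.56% (64 calls) to 45.7% (81 calls).

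The gaining bins were searched on both strands for 3 short motifs of transcription factor families active in osteoblasts. The Runt string AACCACA was in 1 of the 19 bins (5.26%), in 5.00% of all testable bins and in 9.0% of all gaining bins of the genome. The strings TGACTCA and TGAGTCA, each the reverse complement of the other and bound by AP-1 proteins, were in 3 bins (15.8%), next to 3.01% and 8.55%. The TEAD string CATTCCA was in 2 bins (10.5%), next to 3.19% and 5.62%. Of these matches, the P2rx7 gene held the Runt string in the last bin of the intron 2 stretch and TGACTCA in the intron 1 bin printed above, where it reads in lower case from base 116. With 19 bins, such shares rest on 1 to 3 matches and are only a description.

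Neighbouring genes that reach into the windows differed in direction at their TSS. In the P2rx5 window Emc6, a subunit of the membrane protein insertion complex, rose from 14.1% (561 calls) to 38.9% (316 calls) and Tax1bp3 from 15.2% (571 calls) to 41.2% (330 calls). Both passed the test (Fisher exact test, adjusted p = 1.85e-14 and 9.47e-16), but their starts are 46 bp apart and so give nearly the same value. In the P2rx1 window Camkk1, a calcium/calmodulin-dependent kinase kinase, fell from 35% (369 calls) to 22.9% (450 calls), by 12.1 points (Fisher exact test, adjusted p = 0.00087). Its paralogue Camkk2 follows P2rx4 on the minus strand, with its 3′ end inside the window and its TSS beyond it, and stood at 52.7% and 56.0% (Fisher exact test, adjusted p = 0.488). Ssrp1 and Tnks1bp1 in the P2rx3 window and Lrcol1 in the P2rx2 window also passed as higher, by 9.95, 9.96 and 12.6 points. Fbrsl1, of which only the 3′ end reaches into the P2rx2 window, passed as higher by 10.8 points at a TSS outside it. The TSS of Ctns lies outside the P2rx5 window as well. Haspin, Ctns, Lrrc74b, Slc7a4, Prg2 and Prg3 did not pass. The window of Lrrc74b overlaps that of P2rx6, since their starts are 638 bp apart.

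TSS differences of other genes of ATP signalling ran from -16.2 to 30.9 points, and those of the P2X genes from -6.29 to 12.6 points. Among 8 genes listed as P2Y receptors by name, most of them G protein-coupled receptors for nucleotides, 4 passed as higher and 1 as lower, with a median of 1.89 points. Over all genes 37.9% passed as higher and 2.88% as lower, and the counts of this list and the next ones are to be read against these shares. P2ry14, the UDP-glucose receptor, rose from 72.7% to 87.6%, and P2ry1, an ADP receptor, fell from 54.5% to 45.5%. Among the 4 adenosine receptors, 3 passed as higher and the median was 18.1 points, with Adora3 rising from 48.8% to 79.6% and Adora2b from 33.2% to 40.7%. Of 7 genes of ATP release, 3 passed as higher (median 3.19 points), led by the vesicular nucleotide transporter Slc17a9 from 27.3% to 56.1%, while Panx2 stood at 46.7% and 44.3%. Of 15 tested genes for ectonucleotidases and nucleoside uptake, 6 passed as higher and 1 as lower (median 5.44 points). Enpp1, which makes pyrophosphate from ATP and so limits mineral formation, rose from 37.5% to 65.8%, and Ada, adenosine deaminase, fell from 63.2% to 47.0%. Of 6 inflammasome genes downstream of P2X7, 2 passed as higher (median 6.95 points). Il18, a cytokine released by it, rose from 69.4% to 78.6%, and Gsdmd, its pore protein, stood at 57.3% and 56.7%. Over gene bodies 6 of 8 P2Y, 4 of 4 adenosine receptor, 4 of 7 release, 11 of 16 ectonucleotidase and uptake and 2 of 6 inflammasome genes passed as higher, and none as lower, where 64.4% of all genes passed as higher.

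**Figure D5:**
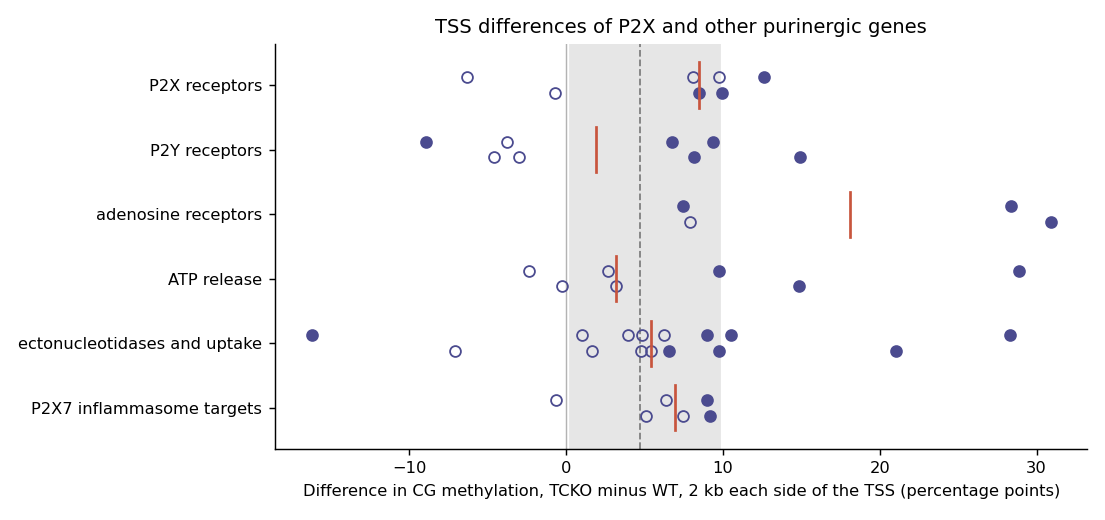
Difference in CG methylation within 2 kb of the TSS (TCKO minus WT, percentage points) for the P2X genes and 5 further lists of purinergic genes. Each circle is 1 gene, filled where the adjusted p is below 0.05, red bars are list medians, and the dashed line and grey band are the median and quartiles of all tested genes. Adenosine receptors have the highest median (18.1 points) and P2Y receptors the lowest (1.89 points).

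Markers of the cell types a bone culture could hold were read in the same way. Of 8 osteoblast genes, 6 passed as higher at the TSS, where 37.9% of all genes did, with WT levels of 3.38% to 76.8%. Of 6 myeloid and osteoclast genes, 4 passed, with 64.4% to 77.4% in WT and 71.9% to 85.4% in TCKO, so none had a low start in either library. Of 4 endothelial genes 3 passed, of 3 skeletal muscle genes 1 passed, and of 4 sensory neuron genes 0 passed. Methylation at these starts does not measure the number of cells of a type, and the part of cell mix in the P2X values was not tested.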

How the data were processed

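The authors aligned the bisulfite reads to GRCm38 with BSMAP 2.74, allowing a few mismatches and 1 best hit, and deposited for each CG cytosine and strand the raw counts of methylated calls and of all calls from uniquely mapped reads, without normalization. Whether duplicate reads were removed is not given in the sources used here. Each library was assigned by its genotype label.

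Calls were pooled over cytosines within a region. WT and TCKO were compared by 2-sided Fisher exact tests with Benjamini-Hochberg adjustment, over protein-coding genes with at least 20 calls in each library or over testable 200 bp bins, at a threshold of 0.05. Bin size and the 40 point difference follow the study's methods. The minimum of 4 CG cytosines counts both strands and so equals 2 CG sites, fewer than the study's 4, which was run as an alternative added after seeing the data. The mean of at least 4 calls per cytosine was set here. The TSS was the 5′ end of the gene model. Counts alone fix the precision: 195 to 6430 calls per member region and library.

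In simulated data, 159 of 200 bins of chromosome 5 raised by 55 points were recovered among 145103 bins with 0 false calls, and 161 of 200 TSS windows raised by 15 points among 21883 with 14 false calls. Only features with lower pooled levels were raised. Calls were drawn independently around a fixed level, so differences between cultures or libraries were not simulated. The text names all members, the 3 bins with the largest gain per window (or all), coding genes whose model has its lower coordinate in a window (for Camkk2, Ctns and Fbrsl1 the TSS lies outside), the extremes of each pathway list and the 3 genes most like P2rx7. Further bins of the P2rx7 window were named after their values were seen. Members and lists were chosen with earlier results of these data known. Alternatives changed the TSS window, start, strand, depth, averaging, scale, bin limits and flank. RefSeq promoters matched 4 of the 7 genes. Python 3.11.15, numpy 2.4.6, scipy 1.17.1, pandas 2.3.3, numba 0.67.0 and matplotlib 3.10.9 were used.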

Additional observations from a re-analysis of the deposited data

How the results depend on the processing

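No paired analysis was possible because each genotype had 1 library, which also leaves no replicate to omit. The counts of members passing at the TSS (3) and over the body (4) stayed within 1.5 times under every setting run. The difference between the pair and the other genes at the TSS (-2.80 points) turned to 0.323 with the starts of all transcripts and to 3.44 on the minus strand, and became -9.99 (binomial error, p = 0.00137) with cytosines of at least 4 calls and -8.39 as a mean of site levels. Over the body (0.701 points) it turned to -0.502 without the deepest cytosines and passed on the log odds scale (0.125, binomial error, p = 0.0226). The 19 gaining bins became 33 of 1298 with at least 1 call per cytosine and 3 of 66 with at least 10. The share difference of 3.73 points passed with 50 kb flanks (3.78 points, Fisher exact p = 0.00988) and with at least 10 calls (13.6 points, 3 of 22 against 0 of 44 bins, p = 0.0337), and shrank to 1.82 points (Fisher exact p = 0.433) with bins shifted by 100 bp and to 0.758 points (Fisher exact p = 0.462) with at least 1 call. With at least 8 CG cytosines a bin, a setting chosen after seeing the data, 7 of 135 bins gained (genome 3.24%), 6 of 64 in the pair's window and 1 of 71 elsewhere (Fisher exact p = 0.0525). The cause of these shifts was not tested. Among members at the TSS, with 1 kb on each side P2rx3 (6.73 points) and P2rx5 (6.70) no longer passed and P2rx1 passed (20.7). Upstream alone P2rx7 no longer passed (2.24), P2rx4 (2.15) and P2rx5 (-0.927) changed sign, and P2rx1 passed (13.4), as it did with all transcript starts (11.5). With cytosines of at least 4 calls P2rx7 (4.29) and P2rx5 (8.48) no longer passed, P2rx2 passed (24.6) and P2rx4 turned to 2.07. On the minus strand P2rx3 (6.55) and P2rx5 (5.79) no longer passed, P2rx2 passed (24.3) and P2rx4 turned to 8.64, and on the plus strand P2rx2 turned to -10.6. Means of site levels gave 22.6 for P2rx2, 16.9 for P2rx3 and 3.57 for P2rx6. Over the body P2rx2 passed without the first 2 kb (20.5) and on the minus strand (21.5), and was -4.58 on the plus strand, 18.3 with at least 4 calls and 17.8 as a mean of sites. P2rx1 passed on the plus strand (10.8) and turned to -2.64 on the minus strand, P2rx4 no longer passed on the plus strand (1.76), and P2rx5 no longer passed with at least 4 calls (6.26). Means of sites gave 2.29 for P2rx4, 5.33 for P2rx5 and 6.76 for P2rx6. The P2rx7 and P2rx3 bodies passed under every setting that had a test.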
